A study of Mus musculus with 2 samples.

Results

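GC-poor open promoters of the mouse adrenal gland are DNase I hypersensitive regions that lie near a start of a protein-coding gene and whose central 150 bp hold less than 50% G and C. Overlapping peaks of both DNase-seq libraries were merged, and a region was kept where it held a peak of each library, lay within 1 kb of an annotated start of a protein-coding transcript and met the cut on GC content in the reference genome. This left 1086 of 22685 open promoters, or 4.79% (95% Clopper-Pearson interval 4.51% to 5.07%; intervals given here cover counting error only). The 21599 open promoters at or above the cut are called the other open promoters. The members with the highest GC content, at 49.3%, numbered 179, and the other open promoters just outside the cut, at 50%, numbered 200.

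The mice were B6CASTF1/J, which is an F1 hybrid strain, all male and adult at 18 to 20 months of age, and the adrenal gland was assayed with no treatment named in the labels. There were 2 libraries in 1 group, labelled biological replicates 1 and 2, so each value below is given in both libraries, and no p-value is given, since an exact test over 2 libraries cannot go below 0.5. Both libraries carry the same donor entry and differ in their tissue sample, and nothing in the labels states that they are from different animals, so each SD over the libraries may be technical. Of the tissue's markers, 5 of 8 from the cortex and 3 of 7 from the medulla had an open promoter, against 64.5% of all protein-coding genes. Neither share is above that of all genes, so these counts do not check the tissue. The open markers included Star, Cyp11a1, Cyp11b1, Nr5a1, Chga and Chgb. No promoter region with a peak of each library was listed for Cyp21a1, Hsd3b1, Mc2r, Th, Dbh or Pnmt, among others.

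DNase I cuts DNA where it is not wrapped in nucleosomes, so clusters of cuts mark promoters and enhancers in use, and short protected stretches inside them, called footprints, mark bases shielded by a bound protein. Most mammalian promoters of housekeeping genes lie in CpG islands, which are rich in G, C and the dinucleotide CpG and hold GC boxes for SP and KLF factors. Promoters outside such islands are poorer in G and C, more often belong to genes used in few tissues, and can carry a TATA box a short distance upstream of the start.

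Stretches upstream of the start of 6 members show what these promoters look like. Rpa2 is the tallest member, H2-M3 and Atp5b are among the 10 tallest, Samd9l is the member of lowest GC content whose region holds a start, and Akr1b7 is the member from the steroidogenesis list with a start inside. Hist1h2bj, chosen after its values were seen, stands for the histone genes described further on. All are in intergenic sequence of GRCm38 (mm10), read on the strand of the gene, with capitals for bases under a footprint of each library.
Rpa2, chr4:132768172-132768331, plus strand: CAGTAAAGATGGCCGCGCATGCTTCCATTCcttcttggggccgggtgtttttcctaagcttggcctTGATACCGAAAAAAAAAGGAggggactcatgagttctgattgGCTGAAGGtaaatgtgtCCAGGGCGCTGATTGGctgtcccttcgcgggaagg
H2-M3, chr17:37270101-37270219, plus strand: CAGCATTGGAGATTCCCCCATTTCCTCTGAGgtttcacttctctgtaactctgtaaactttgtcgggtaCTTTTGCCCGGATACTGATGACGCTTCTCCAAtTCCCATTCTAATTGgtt
Atp5b, chr10:128083113-128083272, plus strand: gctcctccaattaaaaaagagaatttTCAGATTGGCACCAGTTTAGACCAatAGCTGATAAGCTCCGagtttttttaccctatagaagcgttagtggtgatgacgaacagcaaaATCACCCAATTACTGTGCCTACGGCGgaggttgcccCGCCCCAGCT
Samd9l, chr6:3399573-3399700, minus strand: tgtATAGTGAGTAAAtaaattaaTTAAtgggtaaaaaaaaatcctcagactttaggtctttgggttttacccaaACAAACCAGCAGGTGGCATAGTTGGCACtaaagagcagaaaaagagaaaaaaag
Akr1b7, chr6:34412201-34412333, plus strand: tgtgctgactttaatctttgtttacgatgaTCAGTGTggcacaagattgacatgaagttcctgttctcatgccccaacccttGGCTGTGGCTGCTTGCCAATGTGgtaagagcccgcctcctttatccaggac
Hist1h2bj, chr13:22043054-22043213, plus strand: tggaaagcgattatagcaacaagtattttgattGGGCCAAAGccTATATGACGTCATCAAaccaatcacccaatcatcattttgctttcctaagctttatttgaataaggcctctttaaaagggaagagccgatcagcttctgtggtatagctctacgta

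The CCAAT box, the word bound by NFY and searched on both strands, was the word found most often in these stretches. Rpa2 holds it 59 and 27 bp upstream of the start, and the copy at 27 bp is whole under a footprint of each library. H2-M3 holds 3 copies, 115, 22 and 7 bp upstream, of which the first is whole under footprints. Atp5b holds 4 copies, and those 130 and 41 bp upstream are under footprints. The single copy in Akr1b7, 36 bp upstream, is under a footprint of each library. Samd9l holds none, and its only match among the 26 words searched is a homeobox word, TAATTA, 108 bp upstream. In Hist1h2bj a cAMP response element lies whole under footprints 112 bp upstream. Its CCAAT copies, 130, 99 and 91 bp upstream, are not whole under footprints. These stretches do not stand for all members. In the central 150 bp of all members, 58 of 367 CCAAT copies (15.8%) had at least 1 base under a footprint of each library. At the other open promoters this share was 25.1%. Of all bases in the central 150 bp, 8.69% at members and 13.8% at others lay under a footprint of each library. Footprints thus covered less of the members at any base, which bears on every count of words under footprints given below.

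GC-poor open promoters were lower than the other open promoters in both libraries. Peak height, the deposited signal of a peak (the greatest where a region holds several), had a median of 0.722 at the GC-poor open promoters and 2.20 at the others in replicate 1, and 0.982 and 2.18 in that order in replicate 2. Every height was a whole number of steps, with a step of 0.00531 for replicate 1 and of 0.00750 for replicate 2, so the median GC-poor height stood for 136 steps in replicate 1 and 131 in replicate 2, against 414 and 291 steps for the other open promoters. The log2 difference of the medians was -1.61 in replicate 1 and -1.15 in replicate 2, or -1.38 ± 0.32 (SD, n = 2 libraries), a gap larger than the spread between the libraries. The ranges overlapped widely: member heights ran up to 6.92 in replicate 1 and 7.36 in replicate 2, and the lower quartile of the other open promoters was 1.02 in replicate 1 and 1.04 in replicate 2. Of the members, 50.6% fell in the lowest 5th of all open promoters by mean height and 11 in the highest 5th. Heights did not step at the cut. The 179 members at 49.3% GC had medians of 0.770 in replicate 1 and 0.952 in replicate 2. The 200 others at 50% GC had 0.717 and 1.01. Others from 50% to 55% GC had 0.929 and 1.15, so low height is shared by the open promoters nearest the members.

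The tallest members mostly lay on a start. Rpa2, a subunit of the complex that coats single-stranded DNA, reached a height of 6.92 in replicate 1 and 6.83 in replicate 2. That placed it above 91.7% of all open promoters by mean height. Zswim3 had 6.24 and 7.36 in the same order of libraries, with the starts of Acot8, a peroxisomal thioesterase, also in reach. G3bp1, a core protein of stress granules, had 6.33 and 6.55. Rpa2 and G3bp1 were thus about level in both libraries, while Zswim3 was the higher in replicate 2, with a log2 ratio of 0.239. Ndufs7, a subunit of respiratory complex I, had 5.99 and 5.56, and Atp5b, the catalytic beta subunit of ATP synthase, had 4.94 and 5.67. H2-M3, a class I molecule of the major histocompatibility complex that presents formylated peptides, had 5.002 and 6.08. Spsb3, Kazald1 and Arid4a were also among the 10 tallest, with mean heights of 5.85, 5.76 and 5.48. In 9 of the 10 the region held an annotated start, and the exception was Kazald1, whose region was centred 890.5 bp upstream of one.

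**Figure D1:**
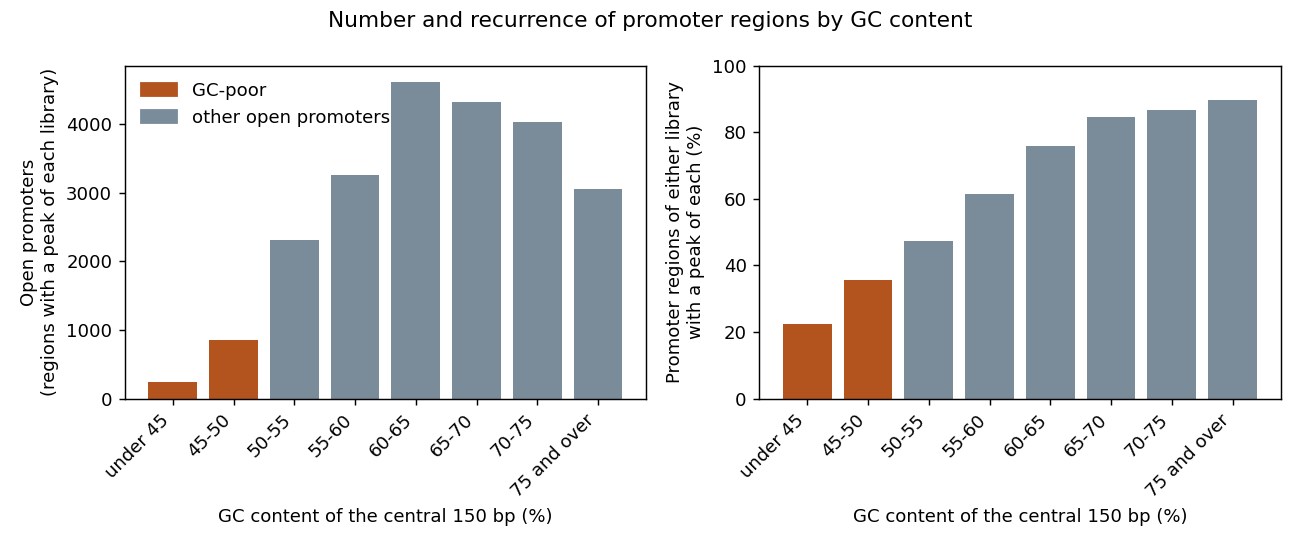
Left, number of open promoters in bins of GC content of the central 150 bp; right, percent of the promoter regions of either library that held a peak of each. GC-poor bins are coloured; recurrence is lowest at the left (22.4% under 45% GC and 35.7% from 45% to 50%) and reaches 89.6% in the most GC-rich bin.

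Fewer of the GC-poor open promoters sat on a start. An annotated start lay inside the region at 309 of 1086 GC-poor open promoters (28.5%) and at 12879 of 21599 others (59.6%), against 58.1% of all open promoters. This share rose with GC content, from 25.9% under 45% GC to 35.5% from 50% to 55% GC and 72.4% at 75% and above. The centre lay a median of 487 bp from the nearest start at the GC-poor open promoters and 107.5 bp at the others. Of the 777 members without a start inside, 502 (64.6%) had a start in reach that one of the other open promoters held, and among the other open promoters without a start inside this share was 65.7%. Centres without a start inside lay upstream of the nearest start at 55.9% of the GC-poor open promoters and at 35.7% of the others. Over all members, centres were intergenic at 41.4% of GC-poor open promoters and 35.1% of others, in an intron at 41.4% and 29.9%, in an untranslated region at 14.1% and 26.7%, and in a coding exon at 3.04% and 8.38%. The nearest start was the 5′ end of its gene at 61.0% of GC-poor open promoters and 61.1% of others.

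The height gap held on and off starts. With a start inside, the median height was 0.982 at GC-poor open promoters and 3.43 at others in replicate 1, and 1.39 and 3.34 in replicate 2. Their log2 difference was -1.53 ± 0.38 (SD, n = 2 libraries). Without one it was 0.642 and 1.24 in replicate 1 and 0.885 and 1.26 in replicate 2, a log2 difference of -0.73 ± 0.31. Both differences exceeded the spread between the libraries. Peaks were also narrower: the median width was 180 bp at GC-poor open promoters and 240 bp at others in replicate 1, and 216 and 240 bp in replicate 2. With a start inside, the median width in replicate 2 was 240 bp in both classes.

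GC-poor promoter regions recurred less between libraries. Of all promoter regions with a peak of either library, 1086 of 3438 GC-poor regions (31.6%) and 21599 of 29458 others (73.3%) had a peak of each, against 69% over all promoter regions. The loss was uneven. Of 1571 GC-poor promoter regions in replicate 1, 69.1% had a peak in replicate 2, while the share of the others was 85.0%. Of 2953 in replicate 2, 36.8% had a peak in replicate 1, against 84.2% of the others. Thus 1867 GC-poor promoter regions were listed in replicate 2 alone and 485 in replicate 1 alone, whereas for the others these counts were 4042 and 3817. Regions listed in replicate 2 alone were low, with a median height of 0.442 at GC-poor regions and 0.577 at others. With a start inside, recurrence was 64.0% at GC-poor regions and 92.5% at others, and without one 26.3% and 56.1%. The longer peak list of replicate 2 held 118249 peaks over the whole genome and that of replicate 1 held 98630.

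**Figure D2:**
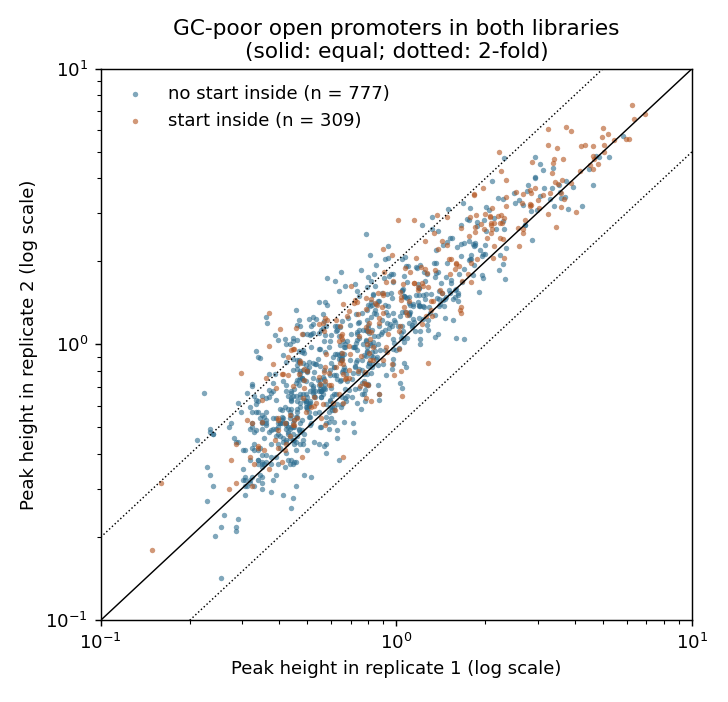
Peak height of each of the 1086 GC-poor open promoters in replicate 1 (x axis) and replicate 2 (y axis), both on log scales; colour marks whether an annotated start lies inside, the solid line equal height and the dotted lines a 2-fold difference. Most points lie above the solid line, 97 lie above the upper dotted line and 0 below the lower.

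Among members with a peak of each library, heights were shifted toward replicate 2. Replicate 2 was the higher at 876 of 1086 GC-poor open promoters (80.7%) and at 45.3% of the others. The median log2 ratio of replicate 2 over replicate 1 was 0.33 at the GC-poor open promoters and -0.04 at the others. Heights were over 2-fold greater in replicate 2 at 97 members (8.93%) and 133 others (0.616%), against 1.01% of all open promoters. They were over 2-fold greater in replicate 1 at 0 of 1086 members, which allows a share of up to 0.339% (upper bound of the 95% interval), and at 86 others, against 0.379% of all open promoters. The ratio fell with each step in GC content, from a median of 0.38 under 45% GC to -0.29 at 75% and above, so the GC-poor open promoters are the end of a trend over all open promoters. What sets this trend was not tested. The median absolute log2 ratio after centring on all open promoters was 0.390 at GC-poor open promoters and 0.220 at others. This measure includes the shift itself, since the centred median was 0.362 at GC-poor open promoters and -0.0135 at others. The SD of the log2 ratio was 0.435 and 0.349 in the same order.

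**Figure D3:**
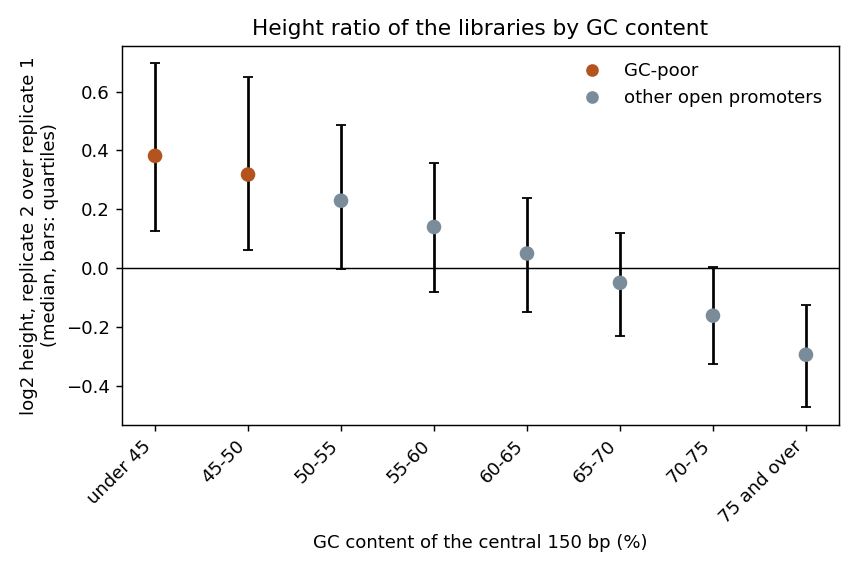
Median log2 ratio of peak height, replicate 2 over replicate 1, in bins of GC content of the central 150 bp; bars span the quartiles over regions, and the line marks equal height. The median falls from 0.38 in the most GC-poor bin to -0.29 in the most GC-rich.

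Of the 5 members with the greatest tilt to replicate 2, all but Idh1 were below the members' median in replicate 1. Chd9, a chromatin remodeller, had a height of 1.30 in replicate 2 and 0.372 in replicate 1. Has2, a hyaluronan synthase, had 1.25 in replicate 2 and 0.361 in replicate 1. Pparg, the nuclear receptor that drives fat cell formation, had 1.20 in replicate 2 and 0.366 in replicate 1. Idh1, an isocitrate dehydrogenase, had 2.52 in replicate 2 and 0.791 in replicate 1. Pram1 followed, with a log2 ratio of 1.58. The 5 members tilted most to replicate 1 were less so, with log2 ratios between -0.84 and -0.69: Cyp11b2, Pramef8, Ifi44, Wdr95 and Arhgap18. Ifi44, an interferon-induced gene, had 0.390 in replicate 2 and 0.658 in replicate 1.

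GC-poor open promoters held fewer footprints per region, while their density per kb of peak varied with the start and with height. The mean per region was 2.29 at GC-poor open promoters and 3.85 at others in replicate 1, and 2.56 and 3.85 in replicate 2. A footprint of each library lay in 68.6% of GC-poor open promoters and 82.1% of others, against 81.5% of all. Among others from 50% to 55% GC it was 70.2%, close to the members. Replicate 1 had a footprint in 83.3% of GC-poor open promoters and 88.7% of others, and replicate 2 in 77.0% and 86.8%. With a start inside these shares were 92.2% and 96.1% in replicate 1, and 90.6% and 95.3% in replicate 2. Without one they were 79.8% and 77.8%, and 71.6% and 74.1%. In the lowest 5th of mean height, 50.1% of GC-poor open promoters and 53.4% of others had a footprint of each library. The share was higher at GC-poor open promoters in the 2nd 5th (79.5% and 63.5%) and the middle 5th (95.5% and 89.96%). Above these, nearly all of both classes had one. For density, footprints of the merged region were divided by the library's own peak width, which raises it where peaks fill less of the region. In replicate 1 mean peak width was 218 bp in regions of 299 bp at GC-poor open promoters, and 304 bp in 352 bp at others. Mean peak widths in replicate 2 were 283 and 324 bp. Density per kb of region was not computed. Footprints per kb of peak numbered 10.5 at GC-poor open promoters and 12.7 at others in replicate 1, and 9.03 and 11.9 in replicate 2, a ratio of 0.796 ± 0.050 (SD, n = 2 libraries). With a start inside the ratio was 0.832 ± 0.008. Without one it was 1.01 ± 0.06, with 9.32 per kb at GC-poor open promoters and 8.83 at others in replicate 1, and 7.59 and 7.86 in replicate 2. Mean footprints per region without a start were still fewer, at 1.79 and 2.53 in replicate 1 and 2.01 and 2.46 in replicate 2. Within 5ths of mean height the ratio turned round, to a mean of 1.15 ± 0.01. In the middle 5th, for example, density was 13.6 per kb at 155 GC-poor open promoters and 11.1 at others in replicate 1, and 14.4 and 10.7 in replicate 2. The exception was the highest 5th, with 11 members, where density was 19.7 per kb at GC-poor open promoters and 22.7 at others in replicate 1, and 16.8 and 22.8 in replicate 2. The members with the most footprints were G3bp1 with 15 in replicate 1 and 12 in replicate 2, Usp1 with 13 and 15, Wdr83 with 12 and 13, and Slc35b1 and a region of Arid4a each with 13 and 11. These regions were 620 to 980 bp wide, against a median width of 234.5 bp over the members.

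**Figure D4:**
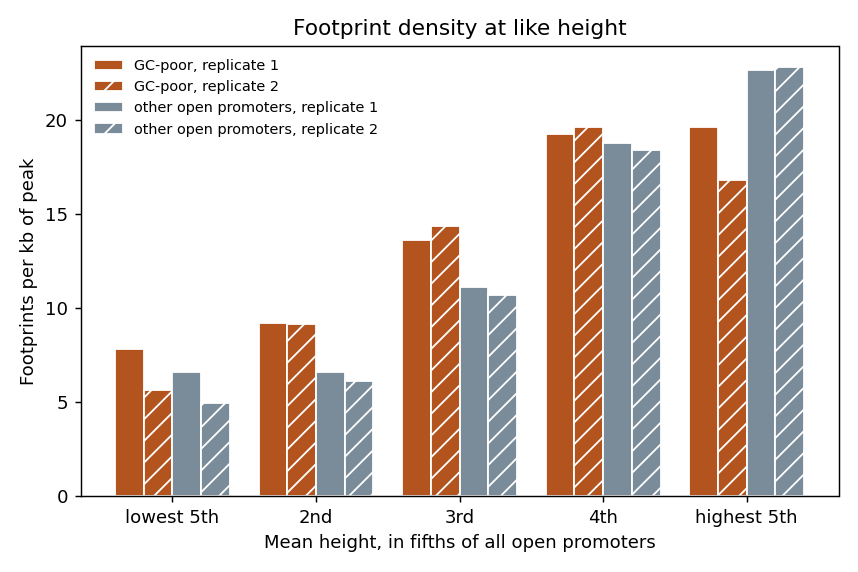
Footprints per kb of peak in 5ths of mean height fixed over all open promoters, for GC-poor open promoters (coloured) and others (grey) in replicate 1 (plain) and replicate 2 (hatched). Footprints were counted over the merged region and divided by the library's own peak width. GC-poor bars are above their counterparts in the lower 4 groups and below them in the highest 5th, which holds 11 members.

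CpG was scarcer in the members than in the other open promoters as a whole, also for their base composition. The observed over expected number of CpG in the central 150 bp had a median of 0.428 at GC-poor open promoters and 0.787 at others, and was at least 0.6 at 26.4% and 72.8%. Others near the cut were like the members, with a median of 0.457 from 50% to 55% GC. Just inside the cut the median was 0.441, and just outside it 0.444. Soft-masked repeats filled over 50% of the window at 5.34% of GC-poor open promoters and 0.676% of others. The mean masked share was 8.57% just inside the cut and 9.04% just outside it. Base composition is what the cut used, so words rich in G and C, or in A and T, must differ in number between the classes, and the shares below are descriptions. The GC box, GGGCGG, was in 6.72% of GC-poor open promoters and 48.3% of others (46.3% of all). The CCAAT box, with both kinds of base, was in 24.6% of GC-poor open promoters and 20.1% of others (20.3% of all). The AP-1 word TGANTCA, the site of FOS and JUN dimers, was in 8.01% of GC-poor open promoters and 2.50% of others (2.76% of all). The C/EBP word TTGCNNAA was in 10.7% and 3.41%, with 3.76% over all. The glucocorticoid receptor word ACANNNTGT was in 4.60% and 1.30%, with 1.45% over all. The glucocorticoid receptor word had at least 1 base under a footprint of each library at 2 of 51 copies in GC-poor open promoters and 29 of 286 in the others, and was whole under them at 1 and 6. The AP-1 word was so touched at 16 of 91 copies in GC-poor open promoters and 79 of 560 in the others, and whole at 4 and 15. NR5A1, the steroidogenic factor of the adrenal cortex, has the word CAAGGTCA, which was in 9 members (0.829%) and 115 others (0.532%), against 0.547% of all. It was touched by a footprint of each library at 3 members and whole under them at 2, which include Ikbkg. In the others it was touched at 14 of 117 copies and whole at 3.

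A word touched by footprints at each of its copies was the cAMP response element TGACGTCA, the site of CREB and its relatives, which include the protein made by Crem. It was in 10 GC-poor open promoters (0.921%) and 430 others (1.99%), against 1.94% of all open promoters. All 10 copies in members had at least 1 base under a footprint of each library, and 397 of 439 (90.4%) in the others. Every base was covered at 9 of the 10, with Il15ra the exception, and at 347 (79.0%) in the others. NRF1, whose word GCGCATGCG is mostly G and C, was in 3 members (0.276%) and 413 others (1.91%). All 5 of its copies in members were whole under footprints, and 86.8% in the others. Copies on either strand were counted apart and can overlap, so 5 copies need not be 5 sites. The elements of 9 of the members are given with the bases to each side, the element in capitals, read on the strand of the gene and named by the gene of the nearest start.
Psmb8, chr17:34197652-34197677, plus strand: cccggtgtgTGACGTCAgcagttcct
Zfp953, chr13:67360608-67360633, minus strand: ggatgcctgTGACGTCAtcagaaggc
Zfp874a, chr13:67451618-67451643, minus strand: gcagcacggTGACGTCAcaggtctgc
Zfp457, chr13:67306452-67306477, minus strand: catcgcctgTGACGTCAtcagaaaga
Ing4, chr6:125039589-125039614, plus strand: gacttcgcgTGACGTCAtgcctgtcg
Zfp595, chr13:67332572-67332597, minus strand: ctaccacgtTGACGTCAccaaaaggc
Zfp72, chr13:74390843-74390868, minus strand: cgcatggtgTGACGTCAcaagcaagg
Hist1h2bj, chr13:22043093-22043118, plus strand: aagcctataTGACGTCAtcaaaccaa
Il15ra, chr2:11706867-11706892, plus strand: cgaggacaaTGACGTCAtccatggac

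Of these 10, counting Crem, 5 belong to zinc finger genes on chromosome 13, and the element lay 10 to 56 bp upstream of the start in each. Zfp953 had a height of 3.90 in replicate 1 and 5.92 in replicate 2. Zfp874a had 3.25 and 6.03, and Zfp457 had 3.24 and 5.27. Zfp595 and Zfp72 were lower, with mean heights of 2.89 and 2.16. All 5 were the higher in replicate 2, as were 80.7% of all members. The central 150 bp of these 5 regions were 51.3% to 78.0% identical, with a median of 60.3% over 10 pairs. Whether any reads are shared between them cannot be told from the deposited files. Psmb8, a subunit of the immunoproteasome, had 5.02 in replicate 1 and 5.27 in replicate 2, with the element 60 bp upstream. Ing4, a reader of histone methylation, had 3.13 and 4.30, with the element 162 bp upstream. The Crem region with the element was low, at 0.568 and 1.12. The element of Il15ra, a receptor chain for interleukin 15, lay 1028 bp downstream of the start.

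TATA boxes were scarce in both classes. The word TATAAA on the gene's strand, beginning 36 to 22 bp upstream of the nearest start, was found at 8 GC-poor open promoters (0.737%, interval 0.319% to 1.45%) and 208 others (0.963%, interval 0.837% to 1.10%), against 0.952% of all. Where the region held the start, it was found at 1 of 309 GC-poor open promoters and 105 of 12879 others, or 3.24 and 8.15 per 1000. In 15 windows of the same width at other offsets the mean was 3.02 per 1000 at GC-poor open promoters and 1.13 at others. The excess at the usual place for a TATA box was thus seen at the other open promoters, and an excess of that size was not detectable with 309 members, whose interval of 0.00819% to 1.79% holds the share of the others, 0.815%. The 1 member was Anxa1, an anti-inflammatory protein induced by glucocorticoids, whose box began 30 bp upstream and was under a footprint of neither library; the word is in capitals.
Anxa1, chr19:20390689-20390712, minus strand: ttcatatccTATAAAatcaggagt
Anxa1 had a height of 0.430 in replicate 1 and 0.772 in replicate 2. At the other 7, Hist1h4j, Slc7a1, Hpgd, Serpinb1a, Hist1h1b, Slc25a4 and Pank1, the box lay outside the region. Anywhere in the central 150 bp and on either strand, TATAAA was in 5.71% of GC-poor open promoters and 1.64% of others, and 4 of 68 copies at GC-poor open promoters and 32.9% at others had at least 1 base under a footprint of each library.

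Across genes, 14069 of 21805 protein-coding genes (64.5%) had an open promoter. Of these, 1087 (7.73%) had a GC-poor one, and 256 (1.82%) were open through GC-poor promoters alone. Gene families differed widely in this. Histone genes had the highest share with a GC-poor open promoter among the families and lists with 10 or more open genes, and interferon-induced families the highest share open through such promoters alone. Of 54 open histone genes, 35 (64.8%) had a GC-poor open promoter and 17 (31.5%) were open through such promoters alone. Their 25 regions, 20 of them on chromosome 13, include promoters shared by divergent genes for histones H2A and H2B. The region shared by Hist2h2ab, Hist2h2ac and Hist2h2be had a height of 3.37 in replicate 1 and 4.18 in replicate 2. Hist1h3c had 2.65 and 3.26, and the region shared by Hist1h2ag and Hist1h2bj had 1.76 and 2.47. Replicate 2 was the higher at 23 of the 25, and at 80.7% of all members. Histone genes are near copies of each other, so reads may be shared between them. Of 18 open genes of interferon-induced families, 11 (61.1%) had a GC-poor open promoter and 8 (44.4%) were open through these alone. Ifi27 was the tallest, with 2.08 in replicate 1 and 2.90 in replicate 2, and Gbp2, a guanylate-binding protein, had 0.722 and 1.45 at the region on its start. Both families were chosen after values of single members were seen.

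**Figure D5:**
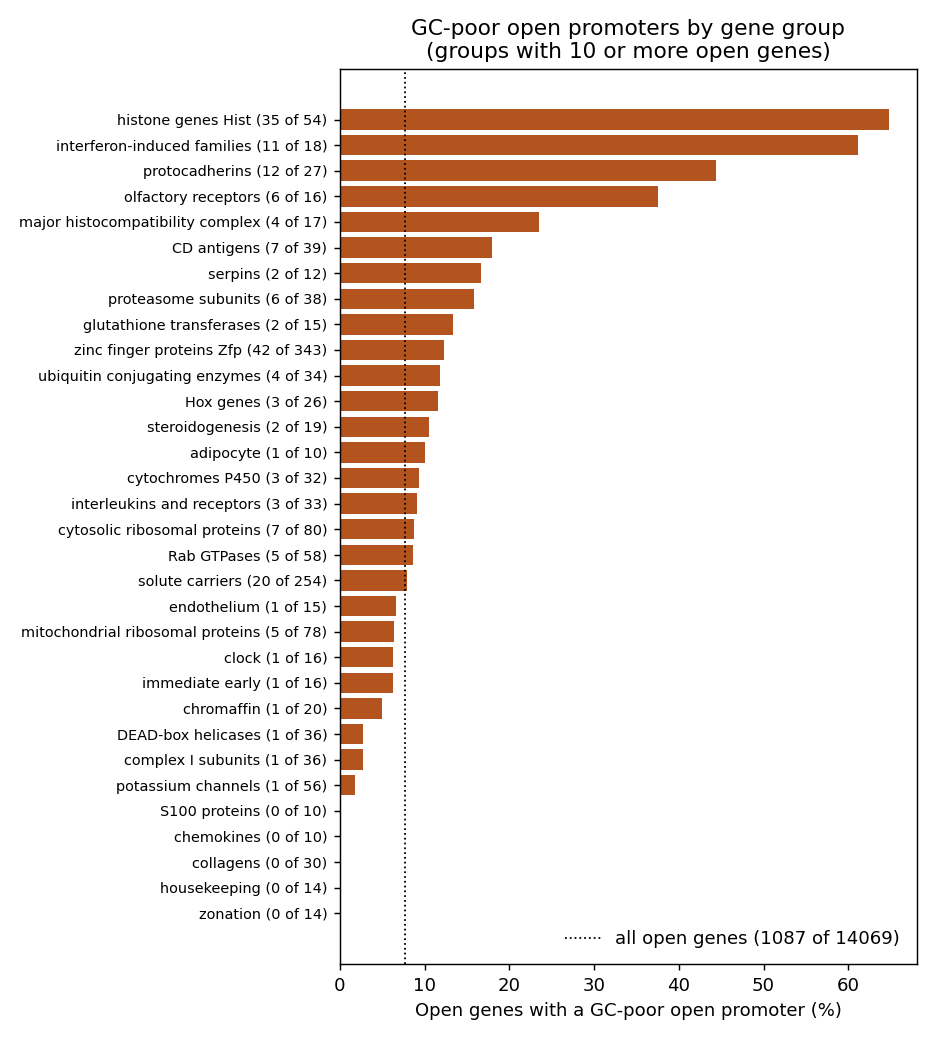
Percent of the open genes of each family or list that had a GC-poor open promoter, for groups with 10 or more open genes, with counts beside the names; the dotted line is the share over all open genes (7.73%). Histone genes (35 of 54), interferon-induced families (11 of 18), protocadherins (12 of 27) and olfactory receptors (6 of 16) stand at the top, and collagens and housekeeping genes are among the groups with 0.

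Protocadherins, adhesion molecules best known from neurons, had a GC-poor open promoter at 12 of 27 open genes (44.4%). Of their 12 regions 10 were on chromosome 18 and 10 held a start. Pcdhga11 was the tallest, with 1.04 in replicate 1 and 1.45 in replicate 2, and Pcdh18 had 1.22 and 1.18. Of 1132 olfactory receptor genes 16 were open, and 6 of these (37.5%) through GC-poor promoters alone, led by Olfr557 with 0.850 and 1.40. These regions were low, with median mean heights of 0.760 for the protocadherins and 0.533 for the olfactory receptors.

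Immune gene families differed in their share of GC-poor open promoters, some above the 7.73% of all open genes and some not. Of 17 open genes of the major histocompatibility complex, 4 (23.5%) had one. Beside H2-M3 these were H2-Eb1, a class II chain, with 2.54 in replicate 1 and 3.58 in replicate 2 at its start, H2-DMb1 with 0.897 and 1.30, and H2-T24 with 0.595 and 0.810. Of 5 open Toll-like receptor genes 2 were open through GC-poor promoters alone, against 1.82% of all open genes. Tlr4, the receptor for bacterial lipopolysaccharide, had 1.16 and 2.05, and Tlr6 had 1.06 and 1.36. Of 39 open genes with a CD symbol, 7 (17.9%) had one. Interleukins and their receptors had one at 3 of 33 (9.09%) and chemokines at 0 of 10. Cd68, a macrophage marker and the 1 of 6 open macrophage genes listed that had one, showed 0.807 and 1.10. Proteasome subunits had one at 6 of 38 open genes (15.8%), with Psmb8 the tallest and Psmd1 next at 4.49 and 4.33. In whole tissue, the number of cells of a type and the openness in each cell cannot be told apart.

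Zinc finger genes of the Zfp series, many of which encode repressors of transposable elements, had a GC-poor open promoter at 42 of 343 open genes (12.2%), and 14 were open through these alone. Of their 45 regions 19 held a start and 42 were the higher in replicate 2, as were 80.7% of all members. Zfp689 had a height of 3.41 in replicate 1 and 4.71 in replicate 2, and Zfp110 was nearly level, at 3.89 and 3.85. Groups of broadly used genes fell on both sides of the 7.73% of all open genes, with ubiquitin conjugating enzymes above it at 4 of 34 (11.8%) and mitochondrial ribosomal proteins below it at 5 of 78 (6.41%). None of 14 open housekeeping genes and none of 30 open collagen genes had one, and potassium channels had one at 1 of 56. Cytosolic ribosomal proteins had one at 7 of 80 (8.75%), but only Rpl10 held a start in it, with 2.02 and 2.44.

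Genes of adrenal hormone synthesis had GC-poor open promoters at shares near the 7.73% of all open genes. Of 19 open steroidogenesis genes there were 2 (10.5%). Akr1b7, an aldose reductase of steroid-producing cells, had a height of 1.33 in replicate 1 and 1.43 in replicate 2 at its start, above 37.0% of all open promoters, with 4 and 3 footprints. Cyp11b2, aldosterone synthase, had a region centred 1302.5 bp upstream of its start, with 0.255 in replicate 1 and 0.142 in replicate 2, above 0.0529% of all open promoters. Of 20 open chromaffin genes there was 1 (5%), Slc18a1, a vesicular monoamine transporter, with 0.425 and 0.442 at a region 624.5 bp upstream of a start. None of the 14 open zonation genes had one. In the remaining lists the members included Dusp1, a phosphatase of the immediate early response, with 1.10 and 1.29, Per1, a clock gene, with 0.834 and 0.847, and Tek, the endothelial angiopoietin receptor, with 0.313 and 0.667 at the taller of its 2 regions. Pparg had 2 regions upstream of a start inside the gene, the taller with 0.547 and 1.42. No open fibroblast, Schwann cell or lymphocyte gene of the lists had one, and these lists held 9, 6 and 4 open genes.

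Members of lowest GC content mostly lay beside a start, not on it, as did most of all members. Gtf3c6, a subunit of a factor for RNA polymerase III, had the member of lowest GC content, a region at 32.7% centred 1062.5 bp upstream of its start, with a height of 0.834 in replicate 1 and 1.51 in replicate 2. Of the 10 members of lowest GC content, 5 lay on chromosome 9 near Gm10717, Gm10718 or Gm10719, with 95.3% to 100% of the window masked as repeats and no open region holding a start in reach. Samd9l, an interferon-induced gene, had a region at 35.3% that held the start, with 1.83 and 3.50. With Gm and Rik symbols left out, the 10 lowest were these and Oxsm, Nuf2, Cwf19l2, Kansl1l, Pcdhb16, Hist1h2bc, Rab32 and Slc5a6, at 36% to 38.7% GC. Of these 10, only Samd9l and Pcdhb16 held a start, and in the other 8 a neighbouring open region held it. Over all members, 309 of 1086 (28.5%) held a start. Of the 777 that did not, 66.9% had a start in reach held by another open region. All of these 10 were the higher in replicate 2, as were 9 of the 10 lowest with every symbol counted. Over all members the share was 80.7%.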

How the data were processed

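The authors made peaks and footprints per library after alignment to mm10 and filtering, as the deposited file index says. Neither the aligner nor the callers are named in the sources used here. Of the 2 peak lists per library the longer was used. Peak height is the signal the authors deposited per peak, in whole multiples of 1 step per library (100% of heights within 0.05 of a whole number of steps); its scaling is not stated, so depth is known only in steps, with a median per peak of 135 in replicate 1 and 100 in replicate 2. Footprints carry a deposited score that is constant and was not used, and neither were the deposited false discovery rates.

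Peaks overlapping by at least 1 bp were merged, as tested on simulated data against bedtools 2.31.1. Regions within 1 kb of 54250 starts of 21805 protein-coding genes were promoters (GENCODE vM21 and GRCm38; 48 records with ambiguous symbols were left out). A gene was open where such a region held a peak of each library, and a region near several genes counted for each. GC content, CpG, repeat masking and 26 words, on both strands, were read from the central 150 bp of the reference, and variants of the hybrid mice were not examined. Words may overlap each other. Heights were compared as log2 values with no pseudocount. Analyses used Python 3.11.15, pandas 2.3.3, numpy 2.4.6, scipy 1.17.1 and pysam 0.24.0.

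With 2 libraries in 1 group no p-value is given (an exact sign test could not go below 0.5), regions are not replicates, and values are mean ± SD over libraries. The members, 14 gene lists with 225 symbols and 30 families by symbol pattern were chosen with earlier results of these data known. Regions were named if among the 10 tallest, the 10 of lowest GC content, the 5 of greatest ratio between libraries in each direction or the 5 with most footprints, if near a start of a listed gene, or if TATAAA lay at the usual offset under a footprint of each library, which none did; a few regions that the rule names are not reported here. Family, cAMP response element, TATA box and NR5A1 examples outside this rule were named after their values were seen. Alternatives were the shorter lists, other cuts on GC content and distance, a stricter overlap, single libraries, and others given at the end.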

Additional observations from a re-analysis of the deposited data

How the results depend on the processing

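Of 101 values recomputed for 11 results, 65 moved by less than the spread between libraries, the binomial interval, or 10% (1.5 times for counts), 33 moved by more and 3 turned round. The lower height, lower recurrence and greater absolute log2 ratio between libraries at GC-poor open promoters kept their direction in every setting that gave them. That absolute ratio, called spread in the differences below, includes the shift toward replicate 2.

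Turned round were the footprint density ratio within 5ths of height (1.15), and the difference in the share with a TATA box, from -0.226 percentage points to 0.0656 with GC content over the whole region; the cause was not tested.

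With the shorter peak lists, 517 members were 2.76% of open promoters, the log2 height difference was -0.98, the footprint share difference -2.89 points and the density ratio 0.920. Under 45% GC, 239 members were 1.05%, with differences of -10.04 points in footprint share, 0.205 in spread and 12.04 points in masking, and 64 genes open through them alone. With whole-region GC content, met by 775 of the 1086, the share was 5.21% and these differences -20.3, 0.209 and 8.37. Within 500 bp, 691 members were 3.50%. Regions that hold a start (chosen after seeing the data) numbered 309, or 2.34%, with differences of -16 bp in width, -7.92 in footprint share, 0.209 in spread and 3.51 in masking. With GC content at the tallest peak (also chosen then), the share was 4.28% and the spread difference 0.188.

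With 1 library alone, the number of members was 1431 to 3020, their share 5.13% to 10.3%, the log2 height difference -1.64 to -1.58, the width difference -75 to -60 bp, the footprint share difference -18.0 to -13.5 points, the density ratio 0.677 to 0.765, the TATA box difference -0.0390 to 0.115 points (above 0 without replicate 2), the masking difference 7.09 to 8.90 points and the genes open through GC-poor promoters alone 188 to 412; the higher number of members, share and gene count are without replicate 1.

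No paired analysis was possible because both libraries belong to 1 group and no groups share replicate numbers; the differences between promoter classes are taken within each library. Depth in reads is unknown, so a region missing from 1 list is described as not listed.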
